A study of Mus musculus with 2 samples.

Results

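The 10 genes described here encode the enzymes that remove the repressive histone mark H3K27me3 and the complex that writes it. They are the H3K27 demethylases *Kdm6a* and *Kdm6b* and the 8 genes of Polycomb repressive complex 2 (PRC2), *Ezh1*, *Ezh2*, *Eed*, *Suz12*, *Rbbp4*, *Rbbp7*, *Jarid2* and *Aebp2*. They were chosen by name for their role and not by a measured value, out of 17774 genes in the deposited counts. Earlier results of these data were known when the choice was made. All 10 were among the 15947 genes that at least 3 cells had a count of. Only 4 of them, *Kdm6b*, *Eed*, *Suz12* and *Jarid2*, reached 10% of the cells in 1 library or the other.

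PRC2 adds methyl groups to lysine 27 of histone H3, and the trimethylated form marks chromatin in which transcription is held down. *Ezh2* and *Ezh1* encode its alternative catalytic subunits, which need EED and SUZ12 to work, while RBBP4 and RBBP7 bind histones and JARID2 and AEBP2 assist the complex at chromatin. KDM6A (UTX) and KDM6B (JMJD3) are Jumonji enzymes that take the methyl groups off again. GSK-J4, the compound given in this study, is an inhibitor of these demethylases that acts on the enzymes and not directly on their RNA. In photoreceptors, H3K27me3 takes part in silencing genes of other retinal cell types and of earlier stages.

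Single GFP-positive cells of the *Pde6c*.GFP mouse were sorted from the retina by flow cytometry, 1 cell per well, and their RNA was sequenced. Both libraries came from the same line, in which the *Pde6ccpfl1* mutation on a C57BL/6 background was crossed with the Chrnb4.eGFP line, so that GFP marks cells in which the *Chrnb4* promoter is active. The uninjected library held retinal cells at P24. The GSK-J4-treated library held cells at P24 from eyes given 1 intravitreal injection of GSK-J4 at P14, 10 days earlier, although its cell names hold the word adult. The stated 10 µM is the final concentration in the eye under an assumed vitreous volume, and the injected solution was stronger. A vehicle-injected library was not analysed here, and the number of animals behind each library is not given in the sources used here.

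There was 1 library on 1 plate per condition. Plate, injection and drug therefore cannot be told apart, no difference has a replicate check, and no test between conditions was run. Intervals given here are exact 95% intervals that cover counting error only. After filtering, 82 uninjected and 64 GSK-J4-treated cells remained, with a median of 8118 counts per cell (860 to 98250) and 2336 counts per cell (420 to 15371). The libraries held 1113424 and 208578 counts in all. Both carried the label cone photoreceptor. Of 11 cone markers, all 11 had counts in uninjected cells, where they made up 2.59% of counts. In GSK-J4-treated cells these markers made up 0.213%, *Opn1sw*, *Gngt2*, *Cngb3*, *Pde6c* and *Guca1a* were at 0, and 50 of the 64 cells had no count of any of the 11. Markers of the other cell types checked made up at most 0.0336% of treated counts per type. For some types not all listed markers passed the gene filter. These were bipolar cells (5 of 6), ganglion cells (3 of 5), microglia (3 of 7) and pigment epithelium (1 of 3). Rod markers made up 0.139% and 0.0201% of the uninjected and treated counts, Müller glia markers 0.0857% and 0.0336%, bipolar cell markers 0.00790% and 0.00959%, amacrine cell markers 0.00413% and 0.00623%, ganglion cell markers 0.00745% and 0.00767%, microglia markers 0.000898% and 0.00336%, and pigment epithelium markers 0.000719% and 0 counts, which allows up to 0.00144%. The treated cells are called GSK-J4-treated cells here and not cones. Both libraries used 54 of the same well positions, and no cell had the same counts as another.

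The reads aligned by the authors were 45 nucleotides long, so a read can be placed in 1 of these genes only where its sequence is not repeated elsewhere. Related members were compared first, and the longest run of bases that each pair shares is shown because it bounds what a single read could confuse. Transcripts and coordinates are those of GENCODE vM21 on GRCm38, and all 3 runs lie in coding exons of both genes. The run of *Kdm6a* and its Y-linked relative *Uty* spans 61 bases at chrX:18247000-18247060 on the plus strand and at chrY:1169172-1169232 on the minus strand. The run of the catalytic subunits spans 17 bases at chr11:101192961-101192977 for *Ezh1* and chr6:47530563-47530579 for *Ezh2*, both on the minus strand. That of the histone-binding subunits spans 20 bases at chr4:129322797-129322816 for *Rbbp4*, on the minus strand, and chrX:162769817-162769836 for *Rbbp7*, on the plus strand.
Kdm6a and Uty: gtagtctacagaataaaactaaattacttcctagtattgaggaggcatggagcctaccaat
Ezh1 and Ezh2: aagtatgtgggcatcga
Rbbp4 and Rbbp7: aaccatgaaggagaagtgaa

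The runs shared by *Ezh1* and *Ezh2* and by *Rbbp4* and *Rbbp7* were shorter than a read. Between *Kdm6a* and *Uty*, 22 of the 8545 distinct 45-base stretches of *Kdm6a* transcripts (0.258%) could not be told apart. Stretches shared with any other annotated transcript, on either strand, made up 18.0% of *Rbbp4* (1588 of 8816, shared with 184 other genes, most of them through the overlapping genes *Gm26722* and *Sync*) and 12.3% of *Rbbp7* (364 of 2949, with *Gm6382* and *Txlng*). The share was 6.43% for *Eed*, 2.70% for *Suz12*, 2.40% for *Kdm6b*, 1.28% for *Ezh2*, 0.516% for *Aebp2*, 0.160% for *Ezh1* and 0% for *Jarid2*. The counting was not stated to use strand, so reads from *Kdm6b* and its antisense gene *Kdm6bos*, from *Ezh2* and *Gm26625*, and from *Suz12* and *Gm26563* cannot be told apart where their transcripts overlap. *Gm44282* and *Gm22213* overlap the spans of *Ezh2* and *Jarid2* on the other strand but share no 45-base stretch with their transcripts. *Eed* overlaps *Gm45120* on its own strand and *E230029C05Rik* on the other.

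Counts of the 10 genes were few and widely scattered over cells. Uninjected cells held 319 counts of them, or 2.87 per 10000 counts of the library (2.56 to 3.20). GSK-J4-treated cells held 70 counts, or 3.36 per 10000 (2.62 to 4.24). The ratio of the treated to the uninjected rate was 1.17 (0.891 to 1.52), an interval that includes 1. The direction depended on the scaling: with median-ratio size factors, taken from genes with counts in both libraries, the ratio was 0.658 (0.501 to 0.855). These factors leave out genes without a count in the shallower treated library, which can lower every ratio scaled by them. The size of this effect was not tested. *Rbbp4* weighed heavily on the sum of the 10 genes, as described below. Without it the ratio was 1.50 (1.12 to 1.98) by library totals and 0.841 (0.628 to 1.11) by median-ratio size factors. The demethylases alone gave 103 and 22 counts, a ratio of 1.14 (0.685 to 1.82). PRC2 gave 216 and 48 counts, a ratio of 1.19 (0.849 to 1.63), or 129 and 43 counts and 1.78 (1.23 to 2.53) without *Rbbp4*. Median-ratio size factors gave 0.641 (0.385 to 1.02) for the demethylases and 0.667 (0.477 to 0.915) for PRC2. The balance between eraser and writer transcripts does not depend on the scaling. The demethylases took 32.3% of the member counts in uninjected cells (27.2% to 37.7%) and 31.4% in GSK-J4-treated cells (20.9% to 43.6%), and these intervals overlap. In uninjected cells this share varied with the wells used. It was 47.6% in plate columns 1 to 6, 24.8% in columns 7 to 12, and 42.6% without the 1 cell that held the most counts.

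**Figure D1:**
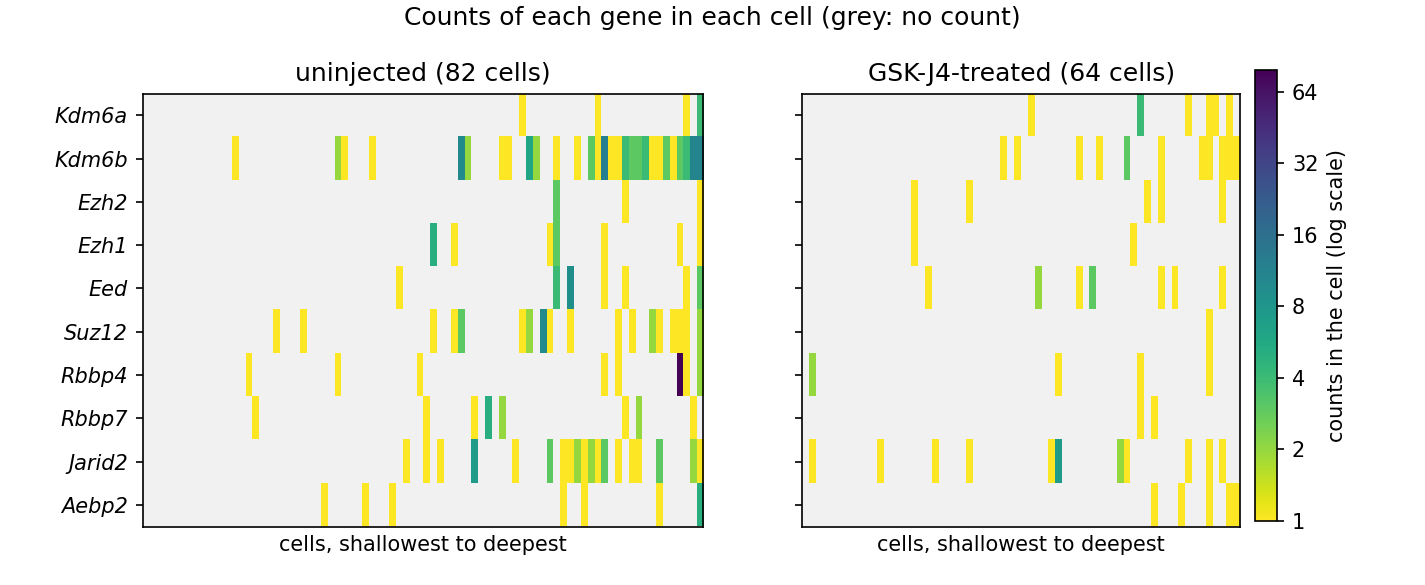
Counts of the 10 genes (rows) in each of the 82 uninjected and 64 GSK-J4-treated cells (columns, ordered from the fewest to the most counts in all), with colour for the count on a log scale and grey for no count. Most coloured cells hold 1 count, they crowd toward the deep end of each panel, and the darkest field is the single uninjected cell with 79 counts of *Rbbp4*.

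Cells with a count of a member were the deeper cells of each library. Of the 82 uninjected cells, 52 (63.4%) had at least 1, against 31 of 64 GSK-J4-treated cells (48.4%). Uninjected cells without any had a median of 2938 counts in all, and those with 3 or more members a median of 29336. The same medians in GSK-J4-treated cells were 1263 and 8563. When each cell was thinned to 867 counts, which left out 1 uninjected and 14 treated cells, 14 of 81 uninjected cells (17.3%) and 12 of 50 treated cells (24%) still had a member count. A catalytic subunit, *Eed* and *Suz12*, the trio that makes up the active core, were found together in 1 uninjected cell and in 0 GSK-J4-treated cells, numbers that at this depth say little about which cells express all 3. *Kdm6a* and *Kdm6b* were found together in 3 and 2 cells, and *Ezh1* and *Ezh2* in 2 and 1.

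Genes of olfactory and vomeronasal receptors (symbols starting Olfr or Vmn) served as a measure of background, since retinal cells are not known to use them as a class. The 394 of them that passed the filter on genes and had an annotated length were found in a median of 3.66% of uninjected and 3.13% of treated cells, and 90% of them lay at or below 12.2% and 10.5% of cells. In uninjected cells *Kdm6b* (35.4% of cells), *Jarid2* (23.2%) and *Suz12* (22.0%) lay above that mark, and the other 7 members lay between 3.66% and 9.76%. In GSK-J4-treated cells *Kdm6b* and *Jarid2* (17.2% each) and *Eed* (10.9%) lay above it, and the other 7 lay between 1.56% and 9.38%. A count of the remaining members in a cell is therefore not distinguishable from background by this measure. The filter leaves out the emptiest receptor genes. Over all 508 deposited ones with a length, the 90th percentiles were lower, at 9.76% and 9.38% of cells. Uninjected *Rbbp4* and *Rbbp7* (9.76% each) and treated *Kdm6a* (9.38%) lay at these marks and not above them. A few of the receptor genes were themselves found in most cells, up to 87.8% and 70.3%.

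**Figure D2:**
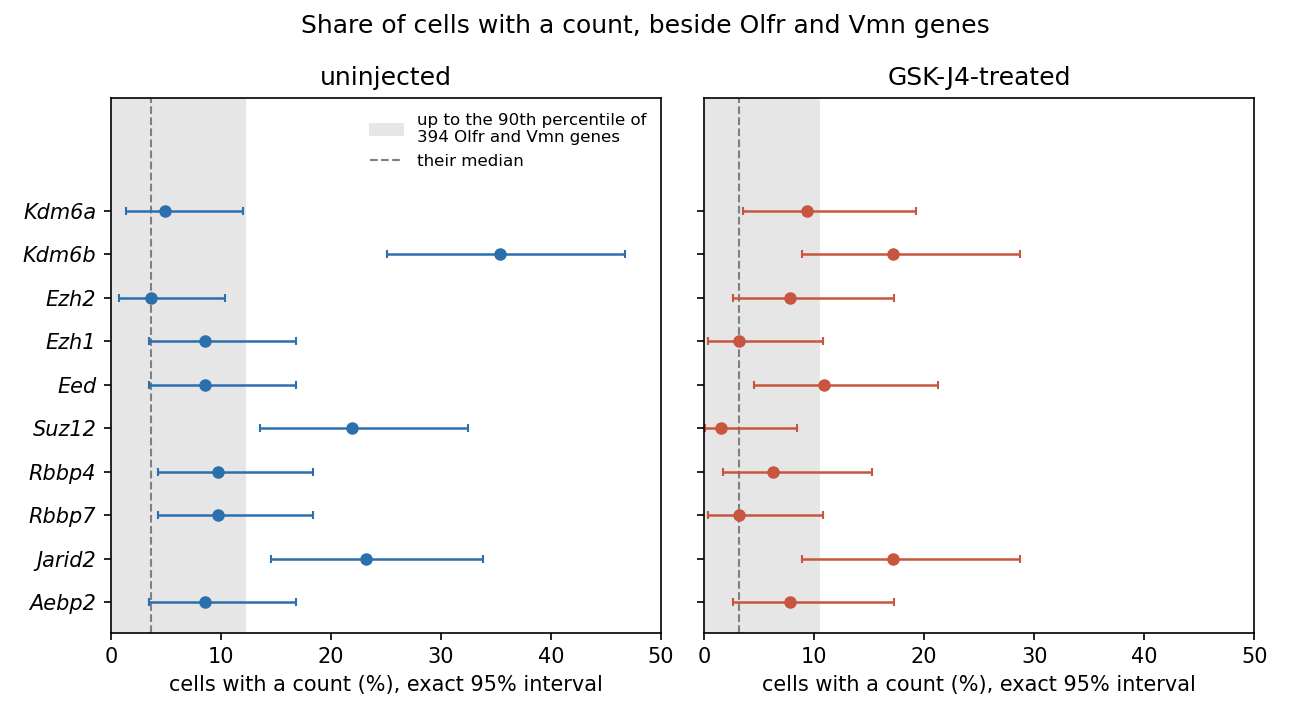
Percentage of cells with a count of each gene in the uninjected (left) and GSK-J4-treated (right) library, as points with exact 95% intervals, beside the range up to the 90th percentile of 394 Olfr and Vmn genes (grey) and their median (dashed). *Kdm6b*, *Suz12* and *Jarid2* lie beyond the grey range in uninjected cells, and *Kdm6b*, *Jarid2* and, narrowly, *Eed* in treated cells.

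To set the genes beside each other, summed counts were divided by exon length and library total and given in RPKM units. The counts came from 3' and 5' reads of transcripts, so they need not grow with exon length. Division by length can therefore change the order of the genes and their place beside the receptor genes. Per 10000 counts, without this division, treated *Jarid2* (0.863) and *Kdm6b* (0.623) exceeded *Eed* (0.479), which leads the treated order below. In uninjected cells *Kdm6b* was highest at 12.4, followed by *Rbbp4* at 8.94, *Suz12* at 5.81, *Eed* at 4.69, *Rbbp7* at 4.32 and *Jarid2* at 3.14, while *Ezh1* (1.57), *Aebp2* (1.003), *Kdm6a* (0.750) and *Ezh2* (0.672) were lowest. The receptor genes that passed the filter had a median of 0.833 in these units and a 90th percentile of 5.05. Over all deposited receptor genes with a length the 90th percentile was 3.71, below *Rbbp7* and above *Jarid2*. In GSK-J4-treated cells the order was *Eed* (12.5), *Kdm6b* (8.96), *Jarid2* (8.88), *Kdm6a* (5.15), *Ezh2* (3.59), *Rbbp7* (3.30), *Rbbp4* (2.74), *Aebp2* (2.43), *Ezh1* (1.29) and *Suz12* (0.970). Receptor genes that passed the filter were higher in this library, with a median of 2.91 and a 90th percentile of 13.4, and no member exceeded that 90th percentile. Over all deposited receptor genes with a length it was 10.7, which *Eed* alone exceeded. At 90.8% of its counts in 1 cell, the second place of *Rbbp4* in uninjected cells came from that cell. Neighbours in the treated order rest on 1 to 18 counts each and cannot be ranked against each other beyond counting error.

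For the comparison of the libraries, a log-fold was computed as the natural log of the mean scaled count plus 1 in treated cells minus that in uninjected cells, where each cell is scaled to 10000 counts. A log-fold beyond 0.3 in either direction was taken as the size threshold. Of the 10 members, 3 lay above it (*Jarid2*, *Eed* and *Rbbp4*), beside 12.6% of all 15947 genes, and 0 lay below it, beside 11.8% of all genes. The 3 were 0.63, 0.31 and 0.31. As the pseudocount of 1 is large against levels of this kind, the ratio of the library rates was also computed. Its 95% interval lay above 1 for *Kdm6a*, *Ezh2*, *Eed* and *Jarid2*, 4 of 10 genes beside 24% of all genes, and below 1 for *Suz12* and *Rbbp4*, 2 of 10 genes beside 14.1%. *Rbbp4* thus stood on opposite sides by the 2 measures. With median-ratio size factors in place of the library totals, the ratio of each gene was multiplied by 0.562, the median log-fold of the 7682 genes found in 10% or more of the cells of a library was -0.14, and of the 4 higher genes *Kdm6a* alone kept an interval above 1.

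**Figure D3:**
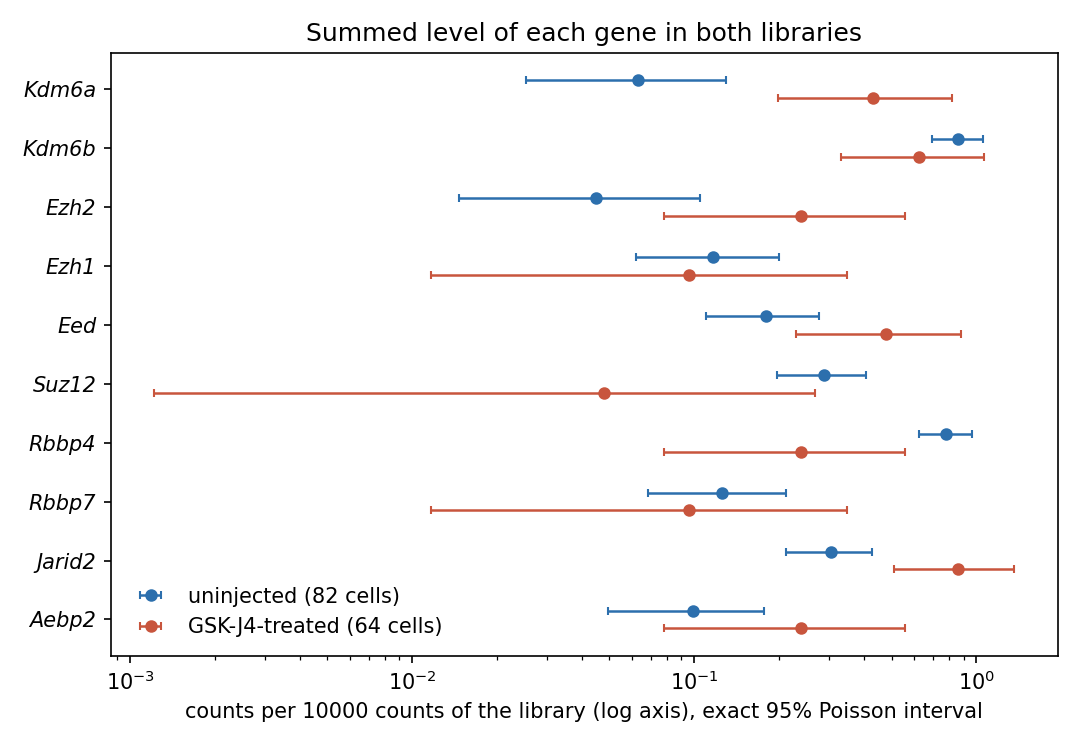
Summed counts of each gene per 10000 counts of the library (log axis) in 82 uninjected and 64 GSK-J4-treated cells, as points with exact 95% Poisson intervals. The intervals of the libraries are apart for *Kdm6a*, *Rbbp4* and *Jarid2* and overlap for the other 7 genes.

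The demethylases lay far apart in uninjected cells. *Kdm6b* (chromosome 11, 69398508 to 69413675, minus strand) was the most widely found member. It had 96 counts in 29 of 82 uninjected cells (35.4%, 25.1% to 46.7%) and 13 counts in 11 of 64 GSK-J4-treated cells (17.2%, 8.90% to 28.7%). Uninjected cells with a count held between 1 and 12, with a median of 2, whereas 10 of the 11 treated cells held 1 and the other held 3. The treated library had both a lower share of cells with *Kdm6b* and a lower depth, and the cause of the lower share was not tested. Uninjected cells with *Kdm6b* had a median depth of 24604 counts against 4814 for those without, treated cells 4871 against 1843, and at an equal depth of 867 counts the expected shares were 5.09% and 4.90%. Per 10000 counts the levels were 0.862 and 0.623, a ratio of 0.723 (0.371 to 1.30) and a log-fold of -0.13. The ratio was 0.773 in plate columns 1 to 6 and 0.688 in columns 7 to 12. Median-ratio scaling gave 0.406 (0.209 to 0.728), which is the setting in which *Kdm6b* passed as lower. With the treated library reduced to the 14 cells that had a cone marker count, the log-fold was 0.23. The direction of *Kdm6b* therefore depended on the scaling and on the treated cells included.

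*Kdm6a* (chromosome X, 18162575 to 18279936, plus strand) encodes the demethylase that also belongs to H3K4 methyltransferase complexes. It was found in 4 of 82 uninjected cells (4.88%, 1.34% to 12.02%) with 7 counts, 4 of them in 1 cell. In GSK-J4-treated cells it was found in 6 of 64 (9.38%, 3.52% to 19.3%) with 9 counts, again 4 of them in 1 cell. The rate was 0.0629 and 0.431 per 10000, a ratio of 6.86 (2.27 to 21.7). It was 8.29 (1.61 to 53.4) without the richest cell of each library and 3.86 (1.28 to 12.2) with median-ratio scaling. In plate columns 1 to 6 the ratio was 18.6 (3.32 to 188), and in columns 7 to 12 it was 2.83 (0.439 to 14.5), which includes 1. The log-fold was 0.21. Treated cells with a cone marker count held 6 of the 9 counts. The uninjected level was near the middle of the receptor genes, 47.0% of which lay below it per kilobase, and 70.1% lay below the treated level.

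Of the catalytic subunits, *Ezh2* (chromosome 6, 47530139 to 47595341, minus strand), which is best known from dividing cells, had 5 counts in 3 uninjected cells and 5 counts in 5 GSK-J4-treated cells. On the smaller treated total these counts gave 0.0449 and 0.240 per 10000, a ratio of 5.34 (1.23 to 23.2) and a log-fold of 0.25. The interval included 1 with median-ratio scaling (3.0, 0.690 to 13.0) and within either side of the plate. *Ezh1* (chromosome 11, 101191115 to 101226463, minus strand), the subunit that prevails in many non-dividing cells, had 13 counts in 7 uninjected cells and 2 counts in 2 treated cells. Its rates were 0.117 and 0.0959 per 10000, with a ratio of 0.821 (0.0900 to 3.63) and a log-fold of 0.05. *Ezh1* made up 13 of 18 counts of the pair in uninjected cells (72.2%, 46.5% to 90.3%) and 2 of 7 in treated cells (28.6%, 3.67% to 71.0%). These intervals overlap, so a switch between the catalytic subunits was not detectable at this depth.

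*Suz12* (chromosome 11, 79993106 to 80034123, plus strand) encodes the subunit that holds the core together, and it was the member with the lowest treated level. It had 32 counts in 18 of 82 uninjected cells (22.0%, 13.6% to 32.5%) and 1 count in 1 of 64 GSK-J4-treated cells (1.56%, 0.0396% to 8.40%). Uninjected cells with a count held 1 in 13 cases and 10 at most. Rates were 0.287 and 0.0479 per 10000, a ratio of 0.167 (0.00410 to 0.999) and a log-fold of -0.27. In columns 1 to 6 there were 12 counts against 0, a ratio of 0 (0 to 2.23), and in columns 7 to 12 there were 20 against 1, a ratio of 0.236 (0.00569 to 1.47), so the interval included 1 on either side of the plate. The upper bound also passed 1 elsewhere. It was 1.01 without the richest cell of each library (22 counts against 0) and 1.06 with at least 500 genes per cell. With median-ratio scaling the ratio was 0.0938 (0.00230 to 0.561).

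*Eed* (chromosome 7, 89954654 to 89980983, minus strand), whose product binds H3K27me3 and stimulates the catalytic subunit, went the other way. It had 20 counts in 7 uninjected cells, 9 of them in 1 cell, and 10 counts in 7 GSK-J4-treated cells, 3 at most. The shares of cells were 8.54% and 10.9%. Rates were 0.180 and 0.479 per 10000, with a ratio of 2.67 (1.12 to 5.97) and a log-fold of 0.31, at the edge of the threshold. Without the richest cells the ratio was 3.39 (1.11 to 9.58), and with median-ratio scaling it was 1.5 (0.627 to 3.36). Treated cells without a cone marker count held 9 of the 10 treated counts. *Eed* and *Suz12* were found in the same cell in 3 uninjected and 0 treated cells.

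*Rbbp4* (chromosome 4, 129307100 to 129335370, minus strand) encodes a histone chaperone that PRC2 shares with other chromatin complexes, and its result rested on single cells. Of its 87 uninjected counts, 79 (90.8%) came from 1 cell, in well D12, which held 44681 counts in all. The other 7 uninjected cells with *Rbbp4* held 1 or 2. In GSK-J4-treated cells it had 5 counts in 4 cells, of which 2 came from a cell with 454 counts in all. Summed rates were 0.781 and 0.240 per 10000, a ratio of 0.307 (0.0972 to 0.744). Without the richest cell of each library, 8 and 3 counts gave a ratio of 1.93 (0.329 to 8.02). The log-fold of 0.31 gives each cell equal weight, so the shallow treated cell counted heavily, and it was -0.16 when cells needed at least 500 genes. No direction can be given for *Rbbp4* in these libraries.

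*Rbbp7* (chromosome X, 162760402 to 162779092, plus strand), the close relative of *Rbbp4*, had 14 counts in 8 uninjected cells and 2 counts in 2 GSK-J4-treated cells. Its rates were 0.126 and 0.0959 per 10000, a ratio of 0.763 (0.0841 to 3.32) and a log-fold of -0.09. Of the uninjected counts 13 came from columns 1 to 6 of the plate and 1 from columns 7 to 12, with 1 treated count on each side.

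*Jarid2* (chromosome 13, 44729474 to 44921643, plus strand), a Jumonji-family protein without demethylase activity that recruits PRC2 to chromatin, had the largest log-fold of the 10 genes. It had 34 counts in 19 of 82 uninjected cells (23.2%, 14.6% to 33.8%) and 18 counts in 11 of 64 GSK-J4-treated cells (17.2%, 8.90% to 28.7%). Cells with a count held 1 in most cases and 7 at most in each library. Rates were 0.305 and 0.863 per 10000, with a ratio of 2.83 (1.50 to 5.15) and a log-fold of 0.63. The ratio was 3.23 (1.46 to 6.76) in columns 1 to 6 and 2.57 (0.781 to 7.59) in columns 7 to 12. Without the richest cell of each library it was 2.19 (0.978 to 4.55), and with median-ratio scaling 1.59 (0.844 to 2.89). Of the 18 treated counts, 16 lay in the 50 cells without a cone marker count. With the treated library reduced to the 14 cells that had such a count, the log-fold of *Jarid2* was 0.0056. With every cell thinned to 867 counts it was 0.07, but this draw held 1 count of *Jarid2* in each library. The expected shares of cells with a count at that depth, which do not rest on this draw, were 2.08% and 6.67%. They kept the direction of the ratio but are too close to single counts for a change to be read from them. Thinning thus neither showed nor removed the difference in *Jarid2* at equal depth.

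*Aebp2* (chromosome 6, 140622663 to 140678472, plus strand), a zinc finger cofactor that works beside JARID2, had 11 counts in 7 uninjected and 5 counts in 5 GSK-J4-treated cells. Its rates were 0.0988 and 0.240 per 10000, a ratio of 2.43 (0.661 to 7.58) and a log-fold of 0.01. Summed with *Jarid2*, the accessory pair gave 45 and 23 counts, a ratio of 2.73 (1.58 to 4.61), or 1.53 (0.886 to 2.59) with median-ratio size factors. The core genes *Ezh1*, *Ezh2*, *Eed* and *Suz12* together gave 70 and 18 counts, a ratio of 1.37 (0.769 to 2.33), or 0.771 (0.432 to 1.31). The subunits were thus spread on both sides of 1 by library totals. By counting error, *Eed*, *Ezh2* and *Jarid2* had ratios above 1. *Suz12* and *Rbbp4* had ratios below 1, that of *Rbbp4* resting on single cells. The intervals of *Ezh1*, *Rbbp7* and *Aebp2* included 1. The receptor genes used as background were also higher in the treated library, at 1.39% of its counts against 0.623% of uninjected counts. Whether the ratios above 1 differ from this shift was not tested.

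**Figure D4:**
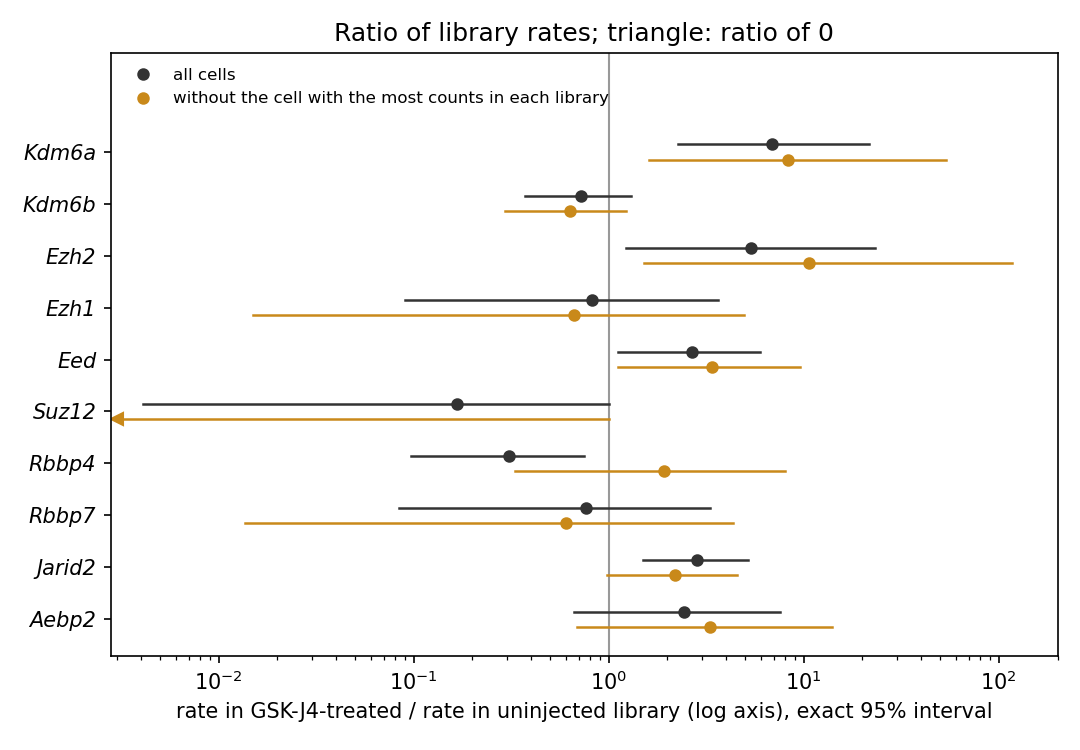
Ratio of the GSK-J4-treated to the uninjected rate of each gene (log axis) with exact 95% intervals, for all cells (black) and without the cell that held the most counts of the gene in each library (ochre). A triangle marks a ratio of 0. *Rbbp4* crosses the line at 1 when its richest cells are left out, and *Suz12* then has 0 treated counts.

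Among the 14 GSK-J4-treated cells with a cone marker count, the 10 genes had 20 counts, or 2.89 per 10000 (1.77 to 4.46), and among the 50 without they had 50 counts, or 3.59 per 10000 (2.66 to 4.73). These intervals overlap each other and that of the uninjected cells, all 82 of which had counts of at least 3 cone markers. None of the 14 treated cells reached 3 cone markers, so a cone marker count does not make them equal to the uninjected cells. They were also deeper, with a median of 3839.5 counts against 1826.5 in the 50 without. *Kdm6b* had 7 and 6 counts in these subsets of treated cells. *Suz12*, *Ezh1* and *Ezh2* had 0 counts in the 14 cells with a cone marker, which allows up to 0.434 per 10000 for each, the level of 3 counts.

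Other genes of the Polycomb and Jumonji families were counted from lists of 62 symbols, of which 30 were found in 10% or more of the cells of a library. Of the 30, 7 (23.3%) lay above 0.3 log-fold and 5 (16.7%) lay below, beside 20.4% and 24% of the 7682 genes found as widely. Their median log-fold was 0.0697, against -0.0050 over those 7682 genes. Of the 7 accessory genes of PRC2, 4 passed the filter on genes (*Mtf2*, *Lcor*, *Lcorl* and *Epop*) and 0 were found in 10% of cells.

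Of the 24 PRC1 genes, whose complex ubiquitinates histone H2A and reads H3K27me3, 10 were found widely enough, with 1 above and 1 below the threshold. *Pcgf5*, a subunit of variant PRC1, had 89 and 39 counts and a log-fold of 0.50, with a ratio of 2.34 (1.56 to 3.44). A single cell held 20 of its uninjected counts, and another held 12 of its treated counts. *Ring1*, which encodes one of its ubiquitin ligases, had 66 uninjected counts, 44 of them in 1 cell, and 0 treated counts, for a log-fold of -0.48. Set against a floor of 3 counts over the treated library, *Ring1* was at least 4.12-fold lower if its 66 counts are taken as exact, and the counting interval of its ratio reached up to 0.307. *Cbx6*, a chromodomain subunit, had 30 and 16 counts and a log-fold of 0.25, and *Pcgf1*, a subunit of the KDM2B-containing variant, 19 and 0 counts and a log-fold of -0.20. The counting interval of the ratio of *Pcgf1* reached up to 1.14 and so included 1.

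The genes of the H2A deubiquitinase complex PR-DUB included the largest log-fold among the 30 listed genes that were found widely enough. *Ogt*, the O-GlcNAc transferase that binds the complex, had 440 counts in 64 of 82 uninjected cells and 4 counts in 4 of 64 GSK-J4-treated cells. Its ratio was 0.0485 (0.0132 to 0.125) and its log-fold -1.31. *Bap1*, the catalytic subunit, had 42 counts in 11 uninjected cells, 14 of them in 1 cell, and 0 treated counts, for a log-fold of -0.50. Against the same floor it was at least 2.62-fold lower, again with its count taken as exact, and the counting interval of its ratio reached up to 0.490. *Asxl3*, a cofactor of BAP1, had 28 and 9 counts and a log-fold of 0.35, with a ratio interval that included 1 (1.72, 0.712 to 3.74). *Foxk2*, a DNA-binding partner, had 27 and 7 counts and a log-fold of 0.13. In all, 7 of the 8 PR-DUB genes were found widely enough, with 1 above and 2 below the threshold.

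Among 21 other Jumonji genes (demethylases, their relatives and *Uty*), 11 were found widely enough, with 3 above and 2 below. *Kdm3b*, an H3K9 demethylase, had 11 and 14 counts and a log-fold of 0.48, with a ratio of 6.79 (2.87 to 16.5). Its treated counts lay in 5 cells, and 7 of the 14 came from 1 shallow cell with 1810 counts in all. *Kdm5b*, an H3K4 demethylase of a subfamily that GSK-J4 also inhibits, had 135 and 76 counts, a ratio of 3.01 (2.24 to 4.01) and a log-fold of 0.42, and 31 of the treated counts came from 1 cell. The third gene above the threshold, *Kdm5a*, was outside the rule for named genes and had 16 and 12 counts and a log-fold of 0.33. *Phf2*, an H3K9 demethylase, had 89 and 2 counts and a log-fold of -0.32, with 41 of the uninjected counts in 1 cell. *Riox2*, a ribosomal oxygenase, had 33 and 4 counts and a log-fold of -0.33, but a ratio interval that included 1 (0.647, 0.167 to 1.82).

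Both acetyltransferases that place the acetyl group on H3K27, the residue PRC2 would otherwise methylate, lay above the threshold. *Crebbp* (CBP) had 38 and 37 counts, a ratio of 5.20 (3.21 to 8.40) and a log-fold of 0.44. *Ep300* (p300) had 56 and 34 counts, a ratio of 3.24 (2.05 to 5.05) and a log-fold of 0.39. A single treated cell held 13 of the 37 *Crebbp* counts, and another held 16 of the 34 *Ep300* counts.

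Of the 10 members only *Kdm6b* was found in at least 25% of uninjected cells, and the genes most like it over the 82 uninjected cells were sought among 2642 genes found as widely. *Sbno1* had the highest Pearson correlation of log scaled counts with *Kdm6b* (r = 0.561, 19 cells with both) and *Whamm* the next (r = 0.451, 15 cells with both). These values describe cells of 1 library that share a plate, and *Kdm6b* itself had r = 0.326 with the log of cell depth.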

How the data were processed

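The authors deposited a single table of raw counts, whole numbers for 17774 genes in 151 cells. To make them they aligned the reads in the CLC Genomics Workbench, removed PCR duplicates by a UMI of 8 nucleotides and the mapping position, assigned reads to Gencode genes with featureCounts, and added the 3' and 5' counts. The submitters' processing notes name the build as GRCh38, a human build number. Gene positions, lengths and shared sequences used here are from GENCODE vM21 on GRCm38. The treated cells in the table are fewer than the study's text gives, and every sample column was used.

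A gene needed a count in 3 cells to be kept, which removed 1827 genes. Cells with fewer than 200 genes or over 5% mitochondrial counts were also removed (5 cells). Both filters follow the study's methods. No batch correction and no doublet caller was applied. Cells were grouped by the treatment label of their library. The log-fold has the form used by Seurat v.2, with a pseudocount of 1. Intervals are exact Poisson for summed counts, Clopper-Pearson for shares, and conditional binomial for the ratio of library rates, all at 95%. UMI counts of a cell share its amplification, so the intervals cover counting error only. A count of 0 was given a floor of 3 counts, against which folds written with at least were computed. For comparisons across depths, 867 counts (the 10th percentile of depth) were drawn from each cell without replacement, with a fixed seed, and the expected share at that depth was computed per gene. Calculations used scipy 1.17.1, numpy 2.4.6 and pandas 2.3.3 in Python 3.11.15, with figures from matplotlib 3.10.9. They were tested on counts simulated for the comparison of both libraries, where the direction was right for 199 of 200 changed genes and the ratio interval held the true ratio for 96.2% of the genes checked. In the simulation, cells of a library differed only by depth and random draw. The changes were large, and the genes had more counts than most of the 10 members. It therefore checks the calculation and not how the intervals hold for few counts that crowd in single cells.

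Named genes were all 10 members, the 2 highest and 2 lowest log-folds of each Polycomb or Jumonji list among genes found in 10% or more of the cells of a library, and the 2 genes most correlated with any member found in at least 25% of uninjected cells. Marker genes, receptor genes and genes that overlap or share sequence with a member are named outside this rule. The members and lists were chosen with earlier results of these data known.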

Additional observations from a re-analysis of the deposited data

How the results depend on the processing

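The filter, the scaling, thinning, the pseudocount, a minimum of 500 genes per cell, either side of the plate, and leaving out the richest cells were each changed in turn. Of 60 alternative values for counts of genes and for shares, 42 stayed within 1.5 times the reported count or inside the counting interval of the reported share, which is wide for the *Ezh1* share. Restricting treated cells to those with a cone marker count, and all alternatives to the ratios of rates, were chosen after seeing the data. No paired analysis was possible because each condition had 1 library.

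The number of members above 0.3 log-fold, 3 as reported, was 5 with a pseudocount of 0.1, 0 under median-ratio size factors, 1 for summed libraries and 1 with only those treated cells that had a cone marker count. The number below, 0 as reported, was 1 with summed libraries, in thinned cells and in plate columns 7 to 12, and 2 with median-ratio size factors or a pseudocount of 0.1. Of the listed Polycomb and Jumonji genes, 2 lay above with median-ratio size factors. With a pseudocount of 0.1, 12 lay above and 10 below. A smaller pseudocount shrinks low genes less by construction. The cause of the other shifts was not tested.

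The log-fold of *Rbbp4* turned from 0.31 to -0.36 for summed libraries, -0.55 under median-ratio size factors, -0.16 with at least 500 genes per cell and -0.13 with treated cells that had a cone marker count. That of *Kdm6b* turned from -0.13 to 0.23, and that of *Ezh2* from 0.25 to -0.03, with treated cells that had a cone marker count. That of *Ezh1*, 0.05 as reported, changed sign in 5 of 10 settings (-0.19 to 0.27), and that of *Aebp2*, 0.01 as reported, was -0.01 without the richest cells. The log-fold of *Jarid2* fell from 0.63 to 0.07 in thinned cells, on 1 count in each library. The ratio of rates of *Rbbp4* turned from 0.307 to 12.4 in columns 1 to 6 and to 1.93 without the richest cells. The demethylase share of uninjected member counts was 43.8% in thinned cells, 47.6% in columns 1 to 6, 24.8% in columns 7 to 12 and 42.6% without the richest cell. The *Ezh1* share was 100% of 1 count in thinned uninjected cells and 0% of 3 counts in treated cells of columns 7 to 12. Of the ratios whose interval excluded 1, that of *Ezh2* and *Eed* included 1 with median-ratio size factors and on either side of the plate, and that of *Jarid2* with median-ratio size factors, in columns 7 to 12 and without the richest cells. The ratio of *Suz12* included 1 on either side of the plate, with at least 500 genes per cell and without the richest cells, and that of *Kdm6a* did so in columns 7 to 12.

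Depth limits every value here, since treated cells had 208578 counts in all, a single count there is worth more per 10000 than in uninjected cells, and 6 of the 10 members were found in fewer than 10% of the cells of both libraries.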
